A study of Mus musculus with 16 samples.

Results

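The genes described here encode the mitochondrial dehydrogenases that calcium activates, together with the phosphatases that switch pyruvate dehydrogenase on. They were chosen by name for what their products do, although earlier results of these data were known at that time, and the list held 10 of the 25006 genes in the count files: Idh3a, Idh3b and Idh3g, Ogdh and Dlst, Pdha1 and Pdhb, Pdp1 and Pdp2, and Gpd2. All 10 were found by Ensembl identifier, and all 10 passed the filter on low counts.

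Calcium that enters the mitochondrial matrix stimulates isocitrate and oxoglutarate dehydrogenase directly and pyruvate dehydrogenase through the phosphatase PDP1, which raises the supply of NADH to the respiratory chain. PDP2, the sister phosphatase, is not known to need calcium. Glycerol-3-phosphate dehydrogenase (Gpd2) sits on the outer face of the inner membrane and binds calcium of the cytosol, so that its activation does not depend on entry into the matrix. Calcium acts on the enzymes themselves, and the measurements below are of the mRNA that encodes them.

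The mitochondrial calcium uniporter (MCU) is the main route of calcium into the matrix, and the study deleted its pore subunit in dopaminergic neurons of the substantia nigra. The libraries analysed here came from 8 control mice, which were DAT-Cre +/-, and from 8 mice of the genotype DAT-Cre+/- MCU fl/fl, called MCU-KO, with 1 library per mouse and RNA taken at postnatal day 45 and 30 days after injection of an adeno-associated virus. The study also counts 1 further MCU-KO mouse, which was not analysed here. The virus carried the RiboTag, a tagged ribosomal protein made only where Cre is present, and the mRNA on tagged ribosomes was immunoprecipitated. Both genotypes therefore carried Cre under the dopamine transporter promoter and the viral tag, while the control mice had no floxed Mcu allele. Per the study, these control mice came from a separate cross, of DAT-Cre +/+ with C57/BL6 mice. The loss of MCU and a difference in breeding background therefore cannot be told apart in any comparison of the genotypes below.

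The libraries held between 14129527 and 22016362 counts, and the lowest total was that of MCU-KO mouse 8. MCU-KO mice 4 and 6 had the most genes with a count, up to 14184 against at most 13170 in control. Mcu had a lowest, median and highest normalized count (count divided by the DESeq2 size factor of its library) of 120.3, 401 and 828 in control mice and of 5.82, 246 and 410.1 in MCU-KO mice. The genotypes overlapped in this gene (log2 fold change −1.19, 95% confidence interval −2.41 to 0.04, edgeR). The labels do not say which part of the gene was removed. Reads from a remaining part of the gene and Mcu mRNA of other cells cannot be told apart here, and neither was tested. The study itself checked the deletion by quantitative PCR of RiboTag mRNA and by a reduced calcium response in the mitochondrial matrix. The 8 dopaminergic neuron markers had counts in every library, with a summed level between 13399 and 17449.9 CPM (TMM-scaled counts relative to the library total) in control mice and between 11601 and 19839 CPM in MCU-KO mice. Of 17 glial markers, 14 were higher in MCU-KO by their log2 fold change, beside 6241 of 12390 tested genes. Of the 17, 0 passed the adjusted threshold and 1, Slc1a2, had an unadjusted p under 0.05 (edgeR's quasi-likelihood test), beside 4.41% of tested genes. Higher in MCU-KO were also 3 of 8 dopaminergic neuron markers, 2 of 3 GABA neuron markers and 0 of 3 endothelial markers. The summed oligodendrocyte markers lay between 2843 and 5489 CPM in control and between 3332 and 6507 CPM in MCU-KO, so mRNA of other cells was present in both genotypes. Because the libraries are bulk samples, a smaller share of a cell type and less mRNA per cell cannot be told apart in any result below.

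In control mice, Idh3b and Idh3g led the group, Idh3a stood in the middle and the phosphatase gene Pdp2 was the lowest. Isocitrate dehydrogenase 3 oxidizes isocitrate in the tricarboxylic acid cycle and is built from catalytic α subunits (Idh3a) together with β (Idh3b) and γ (Idh3g) subunits. Levels between genes were compared as CPM per kb of annotated exon. Idh3b had a level of 140 ± 15.8 CPM per kb (SD, n = 8 control mice) and stood above 96.0% of the tested genes. Idh3g followed with 117 ± 16.3 CPM per kb (SD, n = 8).

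Pdhb, the β subunit of the pyruvate dehydrogenase E1 component, had 70.9 ± 14.6 CPM per kb (SD, n = 8). Ogdh, the subunit of oxoglutarate dehydrogenase that carries the calcium response, had 50.7 ± 6.41 CPM per kb (SD, n = 8), and Idh3a had 49.2 ± 7.88 CPM per kb (SD, n = 8). Ogdh was above Idh3a in 6 of 8 mice, and these levels did not differ beyond their spread (exact sign-flip permutation test, adjusted p = 0.664 over 9 neighbouring pairs). This comparison depends on the length used. With the longest transcript as length, the control means were 67.1 CPM per kb for Ogdh and 96.8 for Idh3a.

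Pdha1, the catalytic α subunit of the same pyruvate dehydrogenase component, had 30.7 ± 8.10 CPM per kb (SD, n = 8) and Gpd2 had 20.1 ± 3.58 CPM per kb (SD, n = 8). Pdp1 had 12.02 ± 7.45 CPM per kb (SD, n = 8), and Dlst, the succinyltransferase core of the oxoglutarate dehydrogenase complex, had 8.99 ± 3.09 CPM per kb (SD, n = 8). Pdp1 was above Dlst in 4 of 8 mice, which again did not differ beyond the spread (exact sign-flip permutation test, adjusted p = 0.589). Here too the length mattered, and with the longest transcript the control means were 12.9 CPM per kb for Pdp1 and 26.7 for Dlst.

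Pdp2 closed the order with 1.28 ± 0.757 CPM per kb (SD, n = 8), above 17.3% of the tested genes. The mean of Idh3b was 109 times that of Pdp2. The other 7 neighbouring pairs of the order had adjusted p values of 0.0141 or 0.0201 in the two-sided exact sign-flip permutation test. The smallest unadjusted p that 8 mice allow is 0.0078. The order and its pairs were formed from the means of the same control mice, so the test is no independent support for the order. It also takes the exon length of each gene as given. In MCU-KO mice the order of the means was the same except that Idh3a stood above Ogdh and Dlst above Pdp1, the same neighbours that were not separated in control mice.

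**Figure D1:**
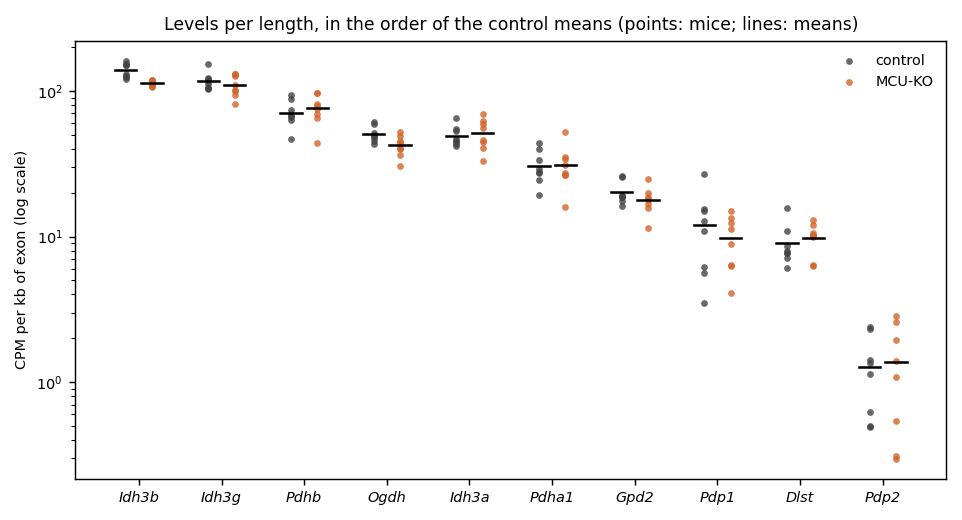
Level of each gene in CPM per kb of exon on a log axis, ordered by the control mean, with points for the 8 control and 8 MCU-KO mice and lines for the means. Idh3b and Idh3g lie at the top, with control means of 140 and 117 CPM per kb, and Pdp2 lies at the bottom, with 1.28 CPM per kb.

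Within an enzyme, some subunits were well apart per kb of exon and others were not. Per kb of exon, Idh3b exceeded Idh3a in 8 of 8 control and 8 of 8 MCU-KO mice, and the log2 ratio averaged 1.51 ± 0.28 in control and 1.18 ± 0.37 in MCU-KO (SD, n = 8 each). Idh3g exceeded Idh3a in all mice of both genotypes as well, by 1.26 ± 0.31 and 1.11 ± 0.28 (SD, n = 8 each). The gene of the catalytic α subunit, of which the enzyme holds more copies than of β or γ, was thus the lowest of the 3 at this scale. With the longest transcript as length, the control means were 152 CPM per kb for Idh3g and 96.8 for Idh3a, a smaller gap, because the annotated exons of Idh3a sum to 5072 bases against 2580 in its longest transcript. Idh3b and Idh3g were closer, with a log2 ratio of 0.26 ± 0.20 in control, where Idh3b was higher in 7 of 8 mice, and of 0.07 ± 0.24 in MCU-KO, where it was higher in 5 of 8 (SD, n = 8 each). Pdhb exceeded Pdha1 in 8 of 8 control and 8 of 8 MCU-KO mice, by log2 ratios per kb of 1.23 ± 0.50 and 1.32 ± 0.29 (SD, n = 8 each).

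Among the pyruvate dehydrogenase phosphatases, the gene of the calcium-stimulated form was the more abundant. Pdp1 exceeded Pdp2 per kb in all 16 mice. The log2 ratio was 3.22 ± 1.25 in control and 3.15 ± 1.04 in MCU-KO (SD, n = 8 each), which is 9.30 and 8.85 times on average. The ratio ranged widely between control mice, from 0.60 to 4.62. Ogdh exceeded Dlst per kb of exon in all 16 mice. Dlst has 13 annotated transcripts and 9559 bases of exon in all against 3220 in its longest transcript, so that the size of this gap depends on the length used. With the longest transcript, the control means were 67.1 CPM per kb for Ogdh and 26.7 for Dlst.

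Between the genotypes, no gene of the group differed at an adjusted p under 0.05. The genes that did were 22 in all, or 0.178% of the 12390 tested (edgeR, adjusted by the Benjamini-Hochberg method), and those lower in MCU-KO were 0.0888%, beside 0 of the 10. At an unadjusted p under 0.05 there were 2 of 10, Idh3b and Ogdh, beside 4.41% of all tested genes. Both had the lower mean in MCU-KO. Of the 10 log2 fold changes, 5 were negative and 5 positive, with a median of −0.04 beside 0.00 over all tested genes.

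**Figure D2:**
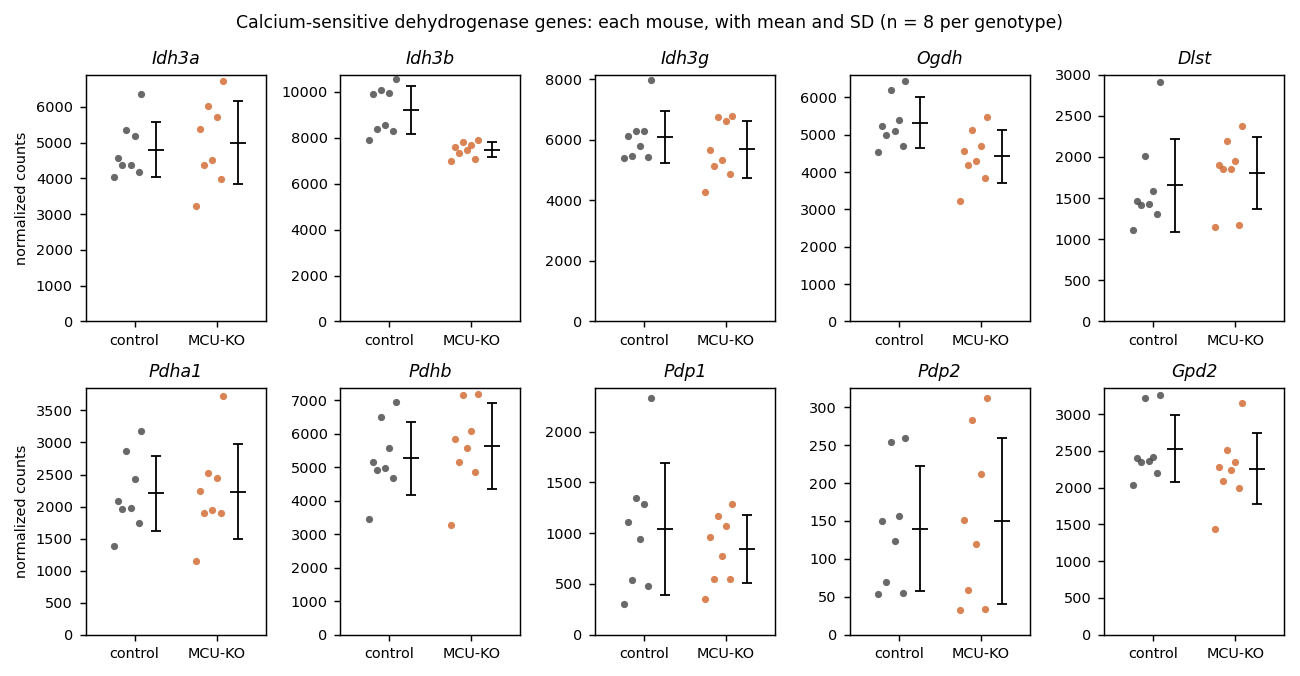
Normalized counts of the 10 genes in each mouse, 1 panel per gene with axes from 0, points for mice, and bars for the mean and SD (n = 8 per genotype). The genotypes are apart only in the Idh3b panel, where the highest MCU-KO mouse has 7878 and the lowest control mouse 7889 normalized counts.

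Idh3b (ENSMUSG00000027406) occupies 130279309 to 130284547 of chromosome 2 in GRCm38, on the minus strand. Its lowest, median and highest normalized counts were 7889, 9217 and 10569.9 in control mice and 6997, 7533 and 7878 in MCU-KO mice. Every MCU-KO mouse was below every control mouse, although the nearest mice of the genotypes were separated by little. Such a separation was found in 1 of the 10 genes and in 0.258% of the tested genes. Mean counts of 9206 ± 1026 in control and 7476 ± 333 in MCU-KO (SD, n = 8 each) resulted, and the MCU-KO mice varied less, with a coefficient of variation of 4.46% against 11.1% in control.

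Idh3b had a log2 fold change of −0.30 ± 0.08 (SE), with a 95% interval of −0.46 to −0.14, which is a decrease of the fitted level to 0.812 of control. Its unadjusted p was 9.9e-04, the 39th smallest of 12390, and its adjusted p over all genes was 0.316 (edgeR's quasi-likelihood test). With DESeq2, the tool of the study, the adjusted p was 0.0107, in a test that called 0.578% of 15563 genes. The call thus depended on the tool while the size did not.

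The values of Idh3b were also set beside the other cells in the pull-down. The mean log2 CPM of the 17 glial markers was 5.71 ± 0.51 (SD, n = 8) in control and 6.01 ± 0.48 (SD, n = 8) in MCU-KO. With this mean as a covariate, the log2 fold change of Idh3b was −0.25 (unadjusted p = 0.0037 in edgeR). Without MCU-KO mice 4, 6 and 8, a choice made after the data were seen, it was −0.29 (unadjusted p = 0.0073 in edgeR). The exons of Idh3b overlap those of the opposite-strand neighbour Nop56 by 5 bases, and none of its stretches of 50 bases occurs in a transcript of another gene. The change of Nop56 was −0.28 on the log2 scale (95% confidence interval −0.67 to 0.11).

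The partners of Idh3b overlapped between the genotypes. Idh3a (chromosome 9, 54586334 to 54604661, plus strand) had a lowest, median and highest normalized count of 4048, 4476 and 6365 in control and of 3232, 4946 and 6731 in MCU-KO, where the mice spread on both sides of control. Its log2 fold change was 0.06 (95% confidence interval −0.23 to 0.34). Idh3g (chromosome X, 73778963 to 73786897, minus strand) had normalized counts of 5383, 5953 and 7967 in control and of 4272, 5501 and 6793 in MCU-KO. The genotypes overlapped here too, with 4 of 8 MCU-KO mice under the lowest control mouse. The change was −0.10 on the log2 scale (95% confidence interval −0.33 to 0.13).

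Within each library, Idh3b was set against its partners as a ratio, which the scaling of the libraries does not change. The log2 ratio of Idh3b to Idh3a was 0.94 ± 0.28 in control and 0.62 ± 0.37 in MCU-KO (SD, n = 8 each), a difference of −0.33 with p = 0.0681 (exact permutation test, two-sided, adjusted p = 0.197 over 5 ratios). Of the MCU-KO mice, 7 of 8 were below the control median. The log2 ratio of Idh3b to Idh3g was 0.60 ± 0.20 and 0.41 ± 0.24 in the same order, a difference of −0.19 with p = 0.118 (exact permutation test, adjusted p = 0.197). Neither ratio passed, so that a lower Idh3b relative to its partners was not separated from the spread between mice. MCU-KO mouse 5 had the highest of both ratios in its group, and without it the differences were −0.42 and −0.25 with unadjusted p values of 0.014 and 0.0214 (exact permutation test). This omission was picked after the data were seen and gave the smallest p of the 16 single-mouse omissions for both ratios. Over the 16 omissions the p values reached 0.129 and 0.219 in the same test.

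Ogdh (ENSMUSG00000020456) occupies 6291633 to 6356642 of chromosome 11, on the plus strand. Its lowest, median and highest normalized counts were 4538, 5164 and 6452 in control and 3224, 4430.5 and 5469 in MCU-KO. The genotypes overlapped, with 7 of 8 MCU-KO mice below the control median and 4 of 8 below the lowest control mouse. Its log2 fold change of −0.27 ± 0.11 (SE) had an interval (95%) of −0.49 to −0.04, an unadjusted p of 0.0246 and an adjusted p of 1.00 (edgeR's quasi-likelihood test). Without MCU-KO mice 4, 6 and 8 it was −0.17 (unadjusted p = 0.149), and the unadjusted p was also above 0.05 when control mouse 1 (0.0587) or 2 (0.0565) or MCU-KO mouse 6 (0.0502) or 8 (0.0546) was left out. With the glial covariate the log2 fold change was −0.26 (unadjusted p = 0.0322 in edgeR). Other alternatives gave a smaller unadjusted p than the main fit, such as 0.0079 with the mouse number as a replicate block (edgeR) and 0.0184 with DESeq2. The adjusted p of Ogdh stayed above 0.05 in all alternatives.

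Dlst (chromosome 12, 85110833 to 85134845, plus strand) had a positive log2 fold change that did not pass the test. Its lowest, median and highest normalized counts were 1106, 1446 and 2909 in control and 1152, 1875 and 2369.95 in MCU-KO. The highest of all 16 mice was a control mouse, and 6 of 8 MCU-KO mice were above the control median. The log2 fold change was 0.13 (95% confidence interval −0.28 to 0.53). It lay between 0.06 (without MCU-KO mouse 7) and 0.29 (without control mouse 8) when single mice were left out, and was 0.29 with the glial covariate, 0.31 without MCU-KO mice 4, 6 and 8 and 0.05 with sample quality weights in limma, and it passed in none of these. The log2 ratio of Dlst to Ogdh was −1.74 ± 0.53 in control and −1.32 ± 0.42 in MCU-KO (SD, n = 8 each), a difference of 0.42 with p = 0.099 (exact permutation test, adjusted p = 0.197). Without control mouse 8 the difference was 0.58 (p = 0.012, exact permutation test) and without MCU-KO mouse 4 it was 0.52 (p = 0.0463, exact permutation test), neither adjusted. These were the only omissions of a single mouse with a p under 0.05. Over all 16 such omissions the p reached 0.175 in the same test.

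The stretches upstream of the first RefSeq start of the 2 genes at an unadjusted p under 0.05 are printed here to show the start regions of the genes nearest to a call, 5′ to 3′ from the RefSeq annotation of GRCm38.p6. The stretch of Idh3b covers chr2:130284548-130284701 (minus strand) and stops where the exon annotated by GENCODE begins, and that of Ogdh covers chr11:6291347-6291596 (plus strand). Capitals mark the letters TGACGTCA, the cAMP response element bound by CREB, a transcription factor that calcium signals activate.
Idh3b: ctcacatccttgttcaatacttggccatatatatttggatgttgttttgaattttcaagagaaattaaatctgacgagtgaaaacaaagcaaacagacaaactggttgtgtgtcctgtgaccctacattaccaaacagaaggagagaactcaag
Ogdh: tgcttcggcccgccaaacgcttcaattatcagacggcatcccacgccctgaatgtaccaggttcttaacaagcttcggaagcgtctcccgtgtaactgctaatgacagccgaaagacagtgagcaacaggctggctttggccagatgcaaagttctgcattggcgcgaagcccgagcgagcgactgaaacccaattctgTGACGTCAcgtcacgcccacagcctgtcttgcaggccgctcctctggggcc

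RefSeq promoter windows, of 250 bases before to 50 bases after a start, were given for 8 of the 10 genes, Idh3a and Pdp1 having none in the table. The element TGACGTCA reads the same on both strands and was present in 1 of these 8 genes, Ogdh, where 3 overlapping windows share it. By windows this is 3 of the 14 of these genes, beside 1.79% of all 32851 windows. The 3 are not independent, and the share of all genes with the element was not counted. The letters TCAAGGTCA (an estrogen-related receptor element), searched on both strands, occurred in none of the 8 genes and in 0.423% of all windows. These matches describe the letters of the windows and no binding was measured.

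Pyruvate dehydrogenase, which admits pyruvate to the cycle, gave no call in either subunit of its first component. Pdha1 (chromosome X, 160122209 to 160138413, minus strand) had a lowest, median and highest normalized count of 1387, 2037 and 3178 in control and of 1146, 2101 and 3724 in MCU-KO, so that the MCU-KO mice spanned the whole control range. Its log2 fold change was 0.02 (95% confidence interval −0.39 to 0.43) and turned negative in some alternative fits. Pdhb (chromosome 14, 8165996 to 8173025, minus strand) had normalized counts of 3439, 5063 and 6936 in control and of 3273, 5711 and 7169 in MCU-KO, again with overlap throughout. Its log2 fold change was 0.10 (95% confidence interval −0.21 to 0.41). The difference of the log2 ratio of Pdhb to Pdha1 was 0.10, with 1.27 ± 0.50 in control and 1.37 ± 0.29 in MCU-KO (SD, n = 8 each, p = 0.638, exact permutation test).

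Some of the sequence of these 2 genes is not theirs alone. Of the stretches of 50 bases in transcripts of Pdha1, 12.9% also occur in another gene on either strand, mostly Map3k15, whose exons overlap those of Pdha1 by 603 bases on the opposite strand and which had no count in any mouse. For Pdhb this share was 11.4%, mostly with Gm6123. Reads from these stretches cannot be assigned with certainty.

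The phosphatase genes were the least precisely measured of the group. Pdp1 (chromosome 4, 11958184 to 11966452, minus strand) had a lowest, median and highest normalized count of 304, 1025 and 2329 in control and of 354, 869.6 and 1290.1 in MCU-KO. Both genotypes spread widely, with coefficients of variation of 62.1% and 39.9%, and 2 of 8 control mice were above the highest MCU-KO mouse. The log2 fold change was −0.31 (95% confidence interval −1.03 to 0.41). Without control mouse 1 it was −0.03, the lowest size in a range that reached −0.45 when other single mice were left out, and it was −0.13 with the mouse number as a replicate block and −0.18 with limma-voom. Pdp2 (chromosome 8, 104591451 to 104599026, plus strand) had normalized counts of 53.6, 137 and 259 in control and of 32.7, 135 and 312 in MCU-KO. Its genotypes overlapped almost fully, and the change, 0.10 on the log2 scale, had an interval (95%) that reached from −1.21 to 1.42 and turned negative in some alternative fits.

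The intervals of Idh3b and Pdp1 had widths of 0.33 and 1.44 on the log2 scale, and 49.0% of the tested genes had a wider interval than Pdp1. The log2 ratio of Pdp1 to Pdp2 was 2.87 ± 1.24 in control and 2.79 ± 1.03 in MCU-KO (SD, n = 8 each), a difference of −0.08 with p = 0.907 (exact permutation test). The balance of the calcium-stimulated to the other phosphatase gene was therefore not separated between genotypes. What size of change could be detected at this spread was not computed.

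Gpd2 (chromosome 2, 57237635 to 57370719, plus strand), the enzyme of the glycerol phosphate shuttle that passes electrons from cytosolic NADH to the respiratory chain, had a lowest, median and highest normalized count of 2039, 2379 and 3265 in control and of 1442, 2261 and 3151 in MCU-KO. The genotypes overlapped, with 6 of 8 MCU-KO mice below the control median. The log2 fold change was −0.17 (95% confidence interval −0.46 to 0.13). A share of 5.92% of its stretches of 50 bases also occurs in the opposite-strand transcript A930012O16Rik, which the count files do not list.

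**Figure D3:**
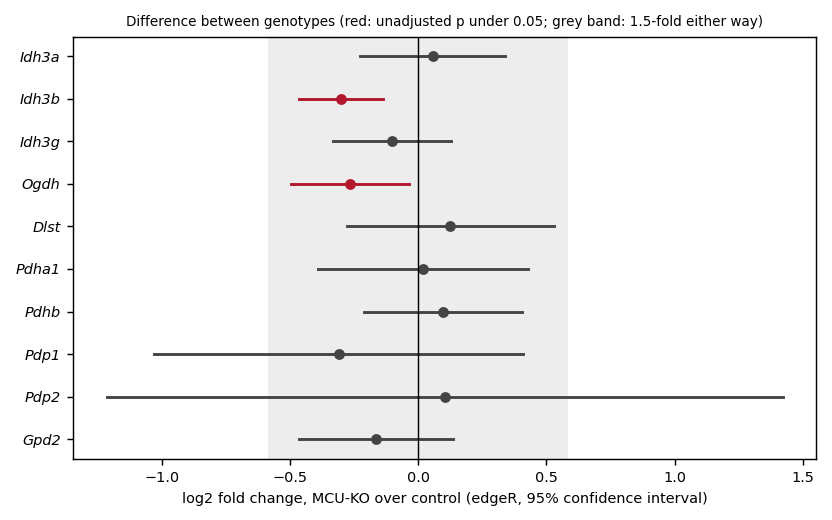
Log2 fold change of MCU-KO over control for the 10 genes (points) with 95% confidence intervals (lines) from edgeR's quasi-likelihood test, on a log2 axis with a grey band for 1.5-fold in either direction. The intervals of Idh3b (−0.46 to −0.14) and Ogdh (−0.49 to −0.04) do not include 0, and those of Pdp1 and Pdp2 leave the band.

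The intervals also give what size of change the data leave possible. For 8 of the 10 genes the 95% confidence interval lay within a change of 1.5-fold in either direction. The 2 exceptions were Pdp1 and Pdp2. Each of the 8 had an interval narrower than that of most tested genes, from Pdha1, with a wider interval in 75.5% of genes, to Idh3b, with a wider interval in 99.5%.

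**Figure D4:**
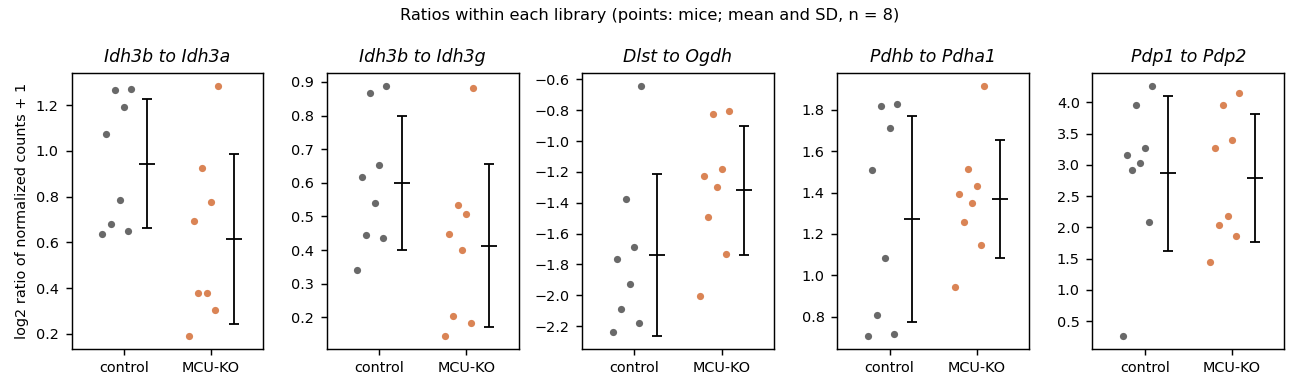
Log2 ratio of normalized counts plus 1 within each library for 5 pairs of subunits or isoenzymes, with points for mice and bars for the mean and SD (n = 8 per genotype). The axes differ between panels and do not start at 0, the points of the genotypes overlap in each panel, and the differences lie between −0.33 for Idh3b to Idh3a and 0.42 for Dlst to Ogdh.

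Subunits of 1 enzyme, and the phosphatase genes Pdp1 and Pdp2, were also compared across the 16 mice after removal of the genotype means. Over 6 pairs, Pearson's r of log2 normalized counts plus 1 lay between −0.12 for Idh3a and Idh3b and 0.47 for Pdha1 and Pdhb. The latter had a permutation p of 0.0852 (adjusted p = 0.425 over the 6 pairs) and a Spearman's rho of 0.28 (permutation p = 0.308, adjusted p = 0.614). Its r was −0.02 in the 8 control mice, 0.81 in the 8 MCU-KO mice and 0.00 without the 2 mice farthest from the median of Pdha1, so that the relation rested on those mice. None of the 6 pairs passed the adjustment.

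The other genes around these enzymes gave no call over all genes. Of the other subunits of the pyruvate and oxoglutarate dehydrogenase complexes, 5 of 6 were tested (Pdha2, a testis form, was not), 0 passed, and the smallest p was that of Pdhx, the protein that binds the third component of pyruvate dehydrogenase to its core. Pdhx had a lowest, median and highest normalized count of 863, 1144 and 2238 in control and of 761, 997 and 1502 in MCU-KO, with a change of −0.39 on the log2 scale (95% confidence interval −0.83 to 0.05). Of the kinases that inactivate pyruvate dehydrogenase and the phosphatase regulator Pdpr, 0 of 5 passed. Pdk2 had the smallest p, its change being −0.21 on the log2 scale (95% confidence interval −0.61 to 0.19). This was the only negative change of the list, and the other 4 were positive, beside 6241 of 12390 tested genes. The median log2 fold changes of these lists were −0.04 and 0.08.

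Among 12 enzymes of the tricarboxylic acid cycle without known calcium control, 0 passed either the adjusted threshold or an unadjusted p of 0.05 in edgeR. Of the 12, 9 had a negative log2 fold change, beside 6149 of 12390 tested genes. Their median was −0.09, beside 0.00 over all tested genes. Sdhb, the iron-sulfur subunit of succinate dehydrogenase, had the smallest p of this list, with normalized counts of 12143, 14414 and 18347 in control and of 10738, 13325 and 14481 in MCU-KO. The genotypes overlapped, and its change was −0.18 on the log2 scale (95% confidence interval −0.36 to 0.01). Both cytosolic partners of Gpd2 had positive log2 fold changes, of 0.43 ± 0.62 (SE) for Gpd1 and 0.15 for Gpd1l, and 0 of 2 passed. Of 5 calcium-binding carriers of the inner membrane, 0 passed, and Slc25a23, which exchanges ATP-magnesium for phosphate, had the smallest p, its change being 0.12 on the log2 scale (95% confidence interval −0.15 to 0.40). In the list of the MCU complex and calcium extrusion, 0 of 9 passed, and Mcu itself had the smallest p.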

How the data were processed

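Whole-number counts per gene were used as the authors deposited them, 1 table per mouse and without normalization. Per the labels and methods, the authors trimmed adapters (Trim Galore, cutadapt), aligned reads to mm10 with STAR and counted them with HTSeq and an Ensembl annotation. Versions, annotation release and strandedness are not given in the sources used here, and gene counts do not separate isoforms. Symbols, coordinates and exon lengths came from GENCODE M21 (GRCm38), in which 24991 of 25006 identifiers had a symbol.

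Genotypes were compared over 12390 genes with edgeR 4.0.16 in R 4.3.3 (filterByExpr, TMM, glmQLFit, glmQLFTest) and Benjamini-Hochberg adjustment at 0.05, after a test on simulated data. Alternatives used DESeq2 1.42.0, limma 3.58.1, other normalizations, filters and covariates, a block, and the omission of each mouse. Ratios and neighbouring levels used exact permutation tests (12870 arrangements of 16 mice, or 256 sign patterns of 8), and correlations 100000 permutations within genotype (Python 3.11.15). Totals of 14129527 to 22016362 counts put 3 counts at 0.136 to 0.212 CPM, which covers counting error only.

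Groups came from sample titles. The 10 genes and all lists were chosen with earlier results of these data known. Beside them and Mcu, the rule named up to 5 called genes of a list or, where none was called, its gene of smallest p. Same-numbered mice did not deviate together (r from −0.053 to 0.042), and they are different animals.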

Additional observations from a re-analysis of the deposited data

Results flagged for a closer look

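Of 32 groups of 8 mice examined (the 10 genes, Mcu and 5 ratios in each genotype), 1 held a mouse far from the others, where chance gives about 1.6. Control mouse 5 had 7967 normalized counts of Idh3g, and its gap to the next mouse was 0.644 of the range of the control group.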

How the results depend on the processing

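The number of genes past the threshold over all genes was 22, and between 18 and 24 without single mice. It was 90 with DESeq2, and, in alternatives chosen after seeing the data, 240.0 with DESeq2 without its outlier handling and 14 without MCU-KO mice 4, 6 and 8. Of the 10 genes described, 0 passed in each fit with edgeR or limma, also without each mouse in turn (between 0 and 0), and 1, Idh3b, passed with DESeq2 with and without outlier handling (adjusted p = 0.0107 and 0.0036). The log2 fold change of Idh3b stayed between −0.33 and −0.25 in all 28 alternatives. With a replicate block for the mouse number, 14 genes passed over all genes and 0 of the 10, and Idh3b had −0.29 with an unadjusted p of 0.0024 in edgeR. The block left the 5 ratios unpassed, the smallest exact permutation p being 0.0547 for Dlst to Ogdh, and it changed no call among the 10. The estimates of 3 genes near 0 changed sign. Pdha1 had −0.0062 under the block. Pdp2 had −0.083 under the block, −0.0029 with limma-voom, −0.022 with the glial covariate and −0.10 without MCU-KO mice 4, 6 and 8. Without single mice, Idh3a lay between −0.018 and 0.13, Pdha1 between −0.13 and 0.12, and Pdp2 between −0.13 and 0.29. The cause of these changes was not tested.

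Without single mice, the differences of the log2 ratios lay between −0.42 and −0.27 for Idh3b to Idh3a, −0.25 and −0.14 for Idh3b to Idh3g, 0.34 and 0.58 for Dlst to Ogdh, and −0.45 and 0.12 for Pdp1 to Pdp2, which also changed sign. With the longest transcript as length, 5 of the 10 genes kept their place in the order of control levels, and between 8 and 10 did without single control mice. The correlations were r = −0.069, −0.16 and 0.62 for Idh3a and Idh3g without the 2 farthest mice, in control mice and in MCU-KO mice, against 0.36 over all. In control and MCU-KO mice r was −0.40 and 0.18 for Ogdh and Dlst, against −0.079 over all. For Pdha1 and Pdhb it was −0.0021, −0.016 and 0.81 in the order given first, and for Pdp1 and Pdp2 it was 0.61 in MCU-KO mice against 0.33 over all. Depth limits Pdp2 most, with as few as 34 counts in a library.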
